A study of Equus caballus with 4 samples.

Results

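The collagen chains were taken as the gene probes whose gene symbol on the array has the form COL, a number, A and a number. This rule found 112 probes for 38 genes among 43603 gene probes, and 50 probes for 15 of these genes were bright enough to be tested, out of 24230 tested probes in all. By class, 22 tested probes belonged to 4 fibrillar chain genes, 12 to 2 basement membrane chain genes and 16 to 9 other chain genes.

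Gene expression was measured in equine satellite cells, the muscle stem cells, taken from the semitendinosus muscle and kept for 3 days in differentiation medium with 2% horse serum. The treated cells received 0.125 µM gamma-oryzanol (GO, a mixture of ferulic acid esters from rice bran) for 24 h and 3 mM hydrogen peroxide (H2O2) for the last 1 h, while the controls were grown without GO. The labels do not say whether the controls met H2O2, while the study's design scheme shows controls that were exposed to it as well, in which case the groups differ in GO. Each of 4 arrays held 1 treated sample in the red dye (Cy5) and 1 control sample in the green dye (Cy3) as biological replicates, and the dyes were never swapped, so dye and treatment cannot be told apart. The study's methods name young stallions as the source and say that the best primary line was chosen, so the replicates may share a horse, and p-values then measure the spread between cultures only. All cells of both groups had been moved onto plates coated with collagen I before differentiation.

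Collagens are built from 3 chains wound into a triple helix, which needs a glycine at regular steps along each chain. Fibrillar collagens (types I, III, V and XI) are secreted with end propeptides that are cut off before the molecules pack into fibrils. Type IV collagen forms the sheet of the basement membrane around each muscle fibre, while types XV and XVIII anchor that sheet and type VI links it to the surrounding matrix. In muscle, fibroblasts are the main source of fibrillar collagen, and cultured myogenic cells also make several chains.

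The array measures each chain with 60-base probes, and several results below differ between probes of 1 gene, so the probes that carry these results are shown first. All were read from the array files, run 5′ to 3′ in the sense of the mRNA and have positions in EquCab1, the build named in the file headers. The probes of COL7A1, the anchoring fibril chain, and of COL6A2, a chain of type VI collagen, include those that passed the test. In COL6A2 the second probe ends on the stop codon, in capitals, and lies 6049 bases from the first.
COL7A1 A_69_P056151, chr16:38426346-38426405, plus strand: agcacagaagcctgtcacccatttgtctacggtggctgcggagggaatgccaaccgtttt
COL6A2 A_69_P017136, chr26:655606-655665, minus strand: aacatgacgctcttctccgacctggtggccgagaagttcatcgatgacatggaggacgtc
COL6A2 A_69_P121916, chr26:649557-649616, minus strand: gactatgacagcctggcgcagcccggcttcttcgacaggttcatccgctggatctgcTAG

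COL4A1, a chain of the basement membrane network, had 6 tested probes, of which 5 were tiled by steps of 1 base across an exon junction. Capitals mark the bases that lie beyond the intron, 0 in the first probe, 1 in the second and 3 in the last, so these probes read almost the same sequence and are not separate measurements of the gene.
COL4A1 A_69_P121015, chr17:76385239-76385298, minus strand: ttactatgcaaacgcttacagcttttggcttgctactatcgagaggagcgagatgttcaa
COL4A1 A_69_P121014, chr17:76383331-76385297, minus strand: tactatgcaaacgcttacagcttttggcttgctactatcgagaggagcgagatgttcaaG
COL4A1 A_69_P121012, chr17:76383329-76385295, minus strand: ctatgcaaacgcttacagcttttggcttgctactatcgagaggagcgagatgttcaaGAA

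Values are log2 ratios of treated over control signal, so that 0 means equal signal, and are given for replicates 1 to 4 in that order. A probe passed where limma's p, adjusted by the Benjamini-Hochberg method over all 24230 tested probes, was under 0.05. Of the 50 collagen probes 4 passed, all higher in the treated cells, which is 8% against 9.49% of all tested probes. None of the 50 passed as lower, against 7.59% of all tested probes. At limma's unadjusted p under 0.05 there were 15 of the 50, none of them lower. Over all 24230 tested probes 8898 were under that p, 4239 of them lower. Many of the 50 overlap other probes of their gene and are not separate measurements. Passing higher were 2 overlapping probes of COL4A1 and 1 probe each of COL6A2 and COL7A1. This count depended on single arrays: it was 0 without replicate 1, without replicate 3 or without replicate 4, and 6 without replicate 2, and in the 3 settings with none the calls over all tested probes fell to 2, 38 and 0, against 3899 without replicate 2.

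The fibrillar chains did not pass the test, and at the brightest probe each had an SD of 0.25 to 0.50 over the 4 arrays, against a median SD of 0.09 over all tested probes. COL1A2, the second chain of type I collagen, had values of 0.14, -0.03, 0.60 and 0.50 at its brightest probe, a mean of 0.30 ± 0.30 (SD, n = 4) with limma's adjusted p = 0.0914. COL3A1, the chain of type III collagen, had 0.10, -0.01, 0.60 and 0.25, a mean of 0.23 ± 0.27 (limma's adjusted p = 0.134). In both genes replicate 3 was highest and replicate 2 was lowest, on either side of 0.

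COL5A2, a chain of the type V collagen that sets fibril width, had values of -0.22, -0.23, 0.31 and -0.03, a mean of -0.04 ± 0.25 (limma's adjusted p = 0.766). COL11A1, a chain of the related type XI collagen, had -0.29, -0.64, 0.48 and 0.20 at its brightest probe, a mean of -0.06 ± 0.50 (limma's adjusted p = 0.814). Replicate 3 was thus the highest array for each of the 4 fibrillar genes and replicates 1 and 2 were the lowest, while over all 13691 tested gene names replicate 3 was highest for 26.6%. The median of the 4 genes was -0.06, -0.13, 0.54 and 0.22 on the 4 arrays and 0.10 over their means, beside 0.01 over all tested gene names. Without replicate 3 the median was -0.02, and with median centring in place of loess it was 0.27.

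**Figure D1:**
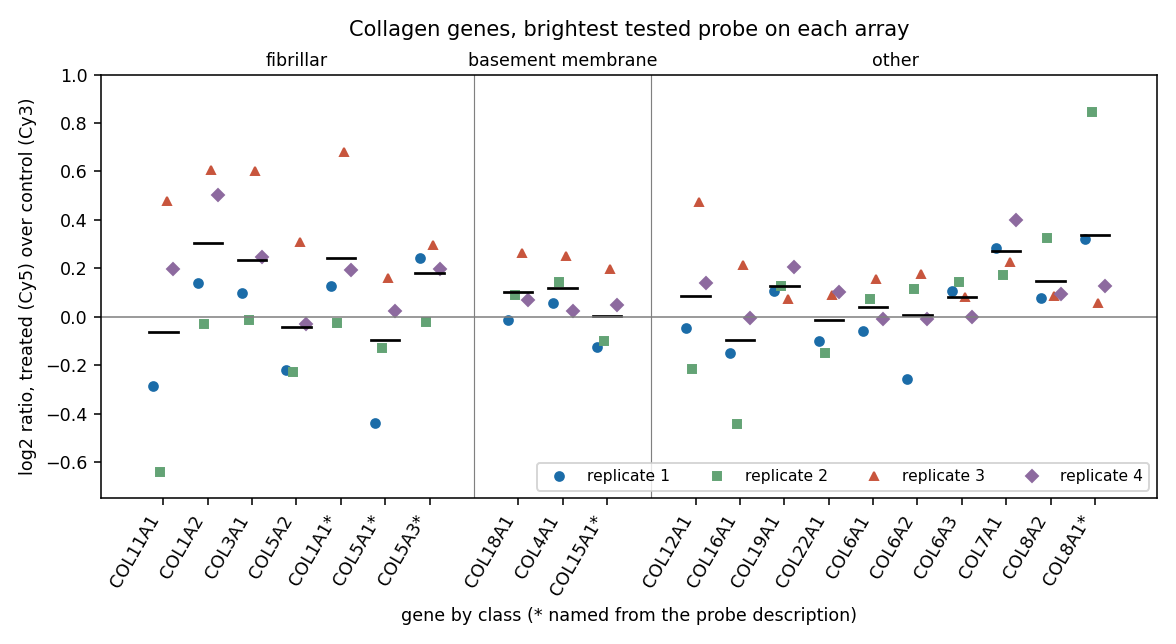
Log2 ratio of treated over control signal for each tested collagen gene at its brightest probe, by class; symbols are the 4 arrays and bars their mean, and an asterisk marks a gene named only in the probe description. Replicate 3 lies highest for every fibrillar gene (up to 0.68 in COL1A1), while the values of COL7A1 lie between 0.17 and 0.40 on all arrays.

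Other fibrillar genes carried no symbol and were read from probe descriptions, so they stand outside the 38 genes. COL1A1, the main chain of type I collagen, had values of 0.13, -0.03, 0.68 and 0.19, a mean of 0.24 ± 0.31 (limma's adjusted p = 0.157). COL5A1, the main chain of type V, had -0.44, -0.13, 0.16 and 0.02, a mean of -0.10 ± 0.26 (limma's adjusted p = 0.491). COL5A3 had 0.24, -0.02, 0.30 and 0.20, a mean of 0.18 ± 0.14 (limma's adjusted p = 0.0797). These genes had their highest value on replicate 3 as well, and with them the fibrillar median was 0.18 over 7 genes.

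At their brightest probes the 2 tested basement membrane chains had an SD of 0.10 and 0.12 over the arrays, and COL4A1 lay above 0 on all 4 arrays. Its 6 probes gave 24 values, all above 0, from 0.02 to 0.41, with probe means from 0.12 to 0.21. These 24 values are not separate measurements. All of these probes except A_69_P041096 read almost the same sequence, and all were read on the same 4 arrays. Probe A_69_P121012 had values of 0.10, 0.12, 0.20 and 0.15, a mean of 0.15 ± 0.04 (limma's adjusted p = 0.0489). Probe A_69_P121014 had 0.12, 0.20, 0.27 and 0.10, a mean of 0.17 ± 0.08 (limma's adjusted p = 0.0452). The 4 others did not pass, among them the brightest, A_69_P041096, with 0.06, 0.14, 0.25 and 0.02, a mean of 0.12 ± 0.10 (limma's adjusted p = 0.138). No pair of the 15 COL4A1 probe pairs differed, with a smallest adjusted p of 0.301.

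COL18A1, whose end fragment is endostatin, had values of -0.01, 0.09, 0.26 and 0.07 at its brightest probe, a mean of 0.10 ± 0.12 (limma's adjusted p = 0.210). Its 6 probes had means from 0.02 to 0.12 and none passed. The median of COL4A1 and COL18A1 was 0.11, and both had their highest value on replicate 3. COL15A1, named from its description, had -0.13, -0.10, 0.20 and 0.05, a mean of 0.00 ± 0.15 (limma's adjusted p = 0.964). COL4A2, which pairs with COL4A1 in the type IV molecule, was well above background on 2 of 4 arrays in each channel and was not tested.

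Among the other chains COL7A1 and a probe of COL6A2 passed the test. COL7A1, which builds the anchoring fibrils under epithelia, had values of 0.28, 0.17, 0.23 and 0.40, a mean of 0.27 ± 0.10 or 1.21-fold (limma's adjusted p = 0.0221). All 4 arrays lay above 0, and this was the only tested probe of the gene.

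In type VI collagen, the microfibril that surrounds the muscle fibre, 1 probe of COL6A2 passed and the others did not. COL6A2 had 0.40, 0.22, 0.41 and 0.24 at the probe on its stop codon, a mean of 0.32 ± 0.11 (limma's adjusted p = 0.0187). At its other and brighter probe it had -0.26, 0.11, 0.17 and -0.01, a mean of 0.01 ± 0.19 (limma's adjusted p = 0.964). The values of the 2 probes did not overlap, and their difference of 0.31 ± 0.24 was above 0 on all 4 arrays, yet it did not pass among all probe pairs (limma's adjusted p = 0.142).

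COL6A1 had values of -0.06, 0.07, 0.16 and -0.01, a mean of 0.04 ± 0.10 (limma's adjusted p = 0.570). COL6A3, the long chain of the molecule, had 0.11, 0.14, 0.08 and -0.00, a mean of 0.08 ± 0.06 at its brightest probe (limma's adjusted p = 0.200). Between the 3 brightest probes the differences were 0.04 ± 0.11 for COL6A1 over COL6A2, -0.04 ± 0.10 for COL6A1 over COL6A3 and -0.08 ± 0.20 for COL6A2 over COL6A3. These differences were smaller than their spread, and an exact sign-flip test on 4 arrays cannot go below p = 0.125.

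The remaining chains did not pass. COL12A1 and COL16A1, which bind to fibril surfaces, had means of 0.09 ± 0.30 and -0.10 ± 0.28, with replicate 3 highest (0.47 and 0.21) and replicate 2 lowest (-0.22 and -0.44). COL19A1 and COL22A1, the latter a chain of muscle-tendon junctions, had means of 0.13 ± 0.06 and -0.02 ± 0.13. COL19A1 lay above 0 on all 4 arrays, from 0.07 to 0.21, with limma's adjusted p = 0.0736. COL8A2, a short chain of type VIII, had 0.08, 0.32, 0.09 and 0.09, a mean of 0.15 ± 0.12 (limma's adjusted p = 0.105). Its partner COL8A1, named from its description, had 0.32, 0.84, 0.06 and 0.13, a mean of 0.34 ± 0.36 (limma's adjusted p = 0.103). Replicate 2 was highest for both type VIII chains, whose probes share a run of 21 bases, the longest between tested probes of different collagen genes, and the difference of COL8A1 over COL8A2 was 0.19 ± 0.25. The median of the 9 other chains was 0.08, and 0.00 without replicate 3.

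Probes of 1 gene were compared through the difference of their ratios on each array, tested with limma over all 16175 pairs of tested probes that share a gene name. Of 110 collagen pairs 14 differed, against 2.1% of all pairs, and all 14 were COL1A2 pairs. Pairs share probes and are not independent. Of the pairs that share no run of 15 bases, 13 of 58 collagen pairs differed (22.4%) against 7.08% of all such pairs. The 74 pairs of the 8 other genes gave none, with a smallest adjusted p of 0.142. Under an unadjusted p of 0.05 were 13 of these 74, beside 2939 of all 16175 pairs.

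The COL1A2 pairs that differed all held 1 of 2 probes, A_69_P003351 at the stop codon and A_69_P004638, which crosses an intron. The other COL1A2 probes shown here are A_69_P004637, which shares the 27 bases in capitals with A_69_P004638, A_69_P004636 just downstream, and A_69_P004645, the first of 5 probes tiled by 1 base further upstream.
COL1A2 A_69_P004638, chr4:37544278-37545231, plus strand: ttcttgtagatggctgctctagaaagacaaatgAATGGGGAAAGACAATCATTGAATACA
COL1A2 A_69_P004637, chr4:37545205-37545264, plus strand: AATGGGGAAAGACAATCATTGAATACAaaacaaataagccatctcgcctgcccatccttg
COL1A2 A_69_P004636, chr4:37545225-37545284, plus strand: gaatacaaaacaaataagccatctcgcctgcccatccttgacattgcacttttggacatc
COL1A2 A_69_P004645, chr4:37544056-37544115, plus strand: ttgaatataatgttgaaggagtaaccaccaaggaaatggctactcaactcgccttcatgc

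A_69_P003351 and A_69_P004638 of COL1A2 had means of 0.30 and 0.28, and did not differ from each other (0.02 ± 0.07, limma's adjusted p = 0.796). A_69_P004636 and A_69_P004637 had 0.07 and 0.03, and the 5 tiled probes lay between -0.07 and -0.04. The probe on the stop codon exceeded A_69_P004636, centred 69 bases upstream, by 0.26, 0.17, 0.22 and 0.30, a mean of 0.23 ± 0.06 (limma's adjusted p = 0.0289). It exceeded A_69_P004645 by 0.36, 0.24, 0.32 and 0.47, a mean of 0.35 ± 0.10 (limma's adjusted p = 0.0236). A_69_P004637 lay below A_69_P004638, with which it shares 27 of 60 bases, with differences of -0.26, -0.29, -0.22 and -0.23, a mean of -0.25 ± 0.03 (limma's adjusted p = 0.0208).

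The order of the 4 arrays was nearly the same at every COL1A2 probe, with replicate 3 highest throughout. A_69_P003351 lay above the 5 tiled probes on all arrays, by unequal amounts. Over A_69_P004644 the difference was 0.37, 0.20, 0.27 and 0.53. Mean log2 signal over both channels was 17.6 in A_69_P003351 and 16.9 in A_69_P004638. It was 17.4 in A_69_P004636, 17.1 in A_69_P004637 and 14.1 to 14.6 in the 5 tiled probes. The GC share was 38.3% and 36.7% in A_69_P003351 and A_69_P004638 and 41.7% to 45% in the other 7. After the median of each GC bin over all tested probes was subtracted, 14 collagen pairs differed. That correction removes only shifts common to the probes of a bin, and the cause of the differences was not tested. The count over all collagen pairs was 1 with Agilent's processed signals and 5 after a running median over signal. It was 0 with limma's trend and robust estimation, 0 with the methods' t-test and 0 without any 1 of the replicates. How many of all pairs differed under these settings is not given. A loss particular to collagen pairs and a loss over all pairs thus cannot be told apart.

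**Figure D2:**
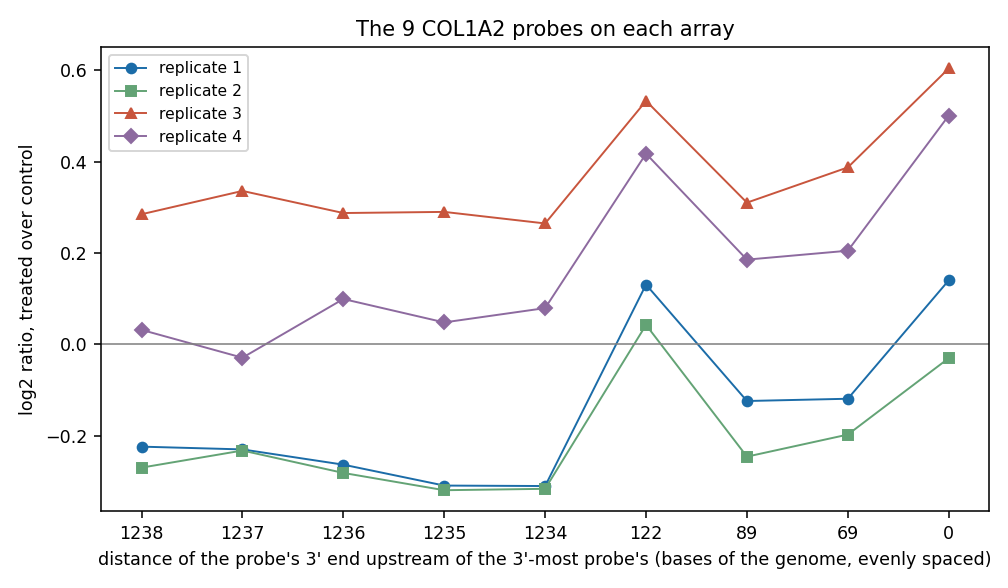
Log2 ratio of treated over control signal for the 9 COL1A2 probes on each of the 4 arrays, ordered by the distance of the probe's 3′ end from that of the probe at the stop codon (at 0, in genome bases, evenly spaced rather than to scale). All 4 lines step up at the probes at 122 (A_69_P004638) and 0 (A_69_P003351), whose means are 0.28 and 0.30.

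COL3A1 and COL1A1, whose brightest probes also read the end of the coding sequence, likewise had their higher values there, without passing. In COL3A1 the probe at the stop codon had 0.23 and the neighbour 60 bases upstream had 0.15, while 5 tiled probes in the propeptide at the start of the chain, up to 28422 bases away in the genome, lay between -0.02 and 0.06. The difference from A_69_P004905 was 0.34, -0.07, 0.51 and 0.24, a mean of 0.25 ± 0.25 (limma's adjusted p = 0.218), the smallest of the 21 COL3A1 pairs. Replicate 2 went the other way from the rest. For COL1A1 the probe 12835 bases upstream had 0.03 against 0.24 at the stop codon (difference -0.21 ± 0.23 for the upstream probe over the other, limma's adjusted p = 0.270). Not all genes had this order. In COL11A1 A_69_P076861 also ends on a stop codon and had -0.06, against 0.76 at A_69_P109806 upstream. In COL18A1 A_69_P017116 ends on one as well and had 0.02, against 0.10 to 0.12 at its other probes, which lie downstream. Mean log2 signal was 16.9 at the COL3A1 stop codon and 9.0 to 9.6 at its tiled probes. For COL1A1 it was 14.8 at the stop codon and 10.4 upstream. Position and signal thus cannot be told apart in COL3A1 and COL1A1. One of the tiled COL3A1 probes is shown for its place in the chain.
COL3A1 A_69_P004901, chr18:54032084-54032143, plus strand: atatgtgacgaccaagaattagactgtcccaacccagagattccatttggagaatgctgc

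COL11A1 showed the widest gap between probes. Its probe A_69_P109806 reads the triple helix itself: read from its base 3, every 3 codons hold a glycine codon, 6 in all, in capitals.
COL11A1 A_69_P109806, chr5:36733403-36738146, plus strand: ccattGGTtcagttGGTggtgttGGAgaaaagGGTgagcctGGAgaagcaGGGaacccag

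That COL11A1 probe had values of 1.37, -0.25, 0.50 and 1.42, a mean of 0.76 ± 0.80 (limma's adjusted p = 0.0926), the highest mean among the collagen probes. The other probes, of which A_69_P076861 lies 36468 bases downstream in the genome, had means of -0.06 and -0.07. The helix probe exceeded A_69_P076861 by 1.66, 0.40, 0.03 and 1.23, a mean of 0.83 ± 0.75 (limma's adjusted p = 0.185). The difference was large on replicates 1 and 4 and near 0 on replicate 3.

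In the remaining genes no pair passed. The 6 COL12A1 probes had means of 0.09 to 0.16, although 1 of them, A_69_P004646, lies apart from the rest in the genome and had a smaller spread (SD 0.10, against 0.28 to 0.31). The 3 COL5A2 probes had means of -0.05 to -0.03, and the 2 COL6A3 probes had 0.08 and 0.15. The COL6A3 difference of -0.06 ± 0.03 was below 0 on all 4 arrays (limma's adjusted p = 0.254). In COL18A1 3 of 15 pairs had an unadjusted p under 0.05 in limma's fit, with a smallest adjusted p of 0.181. Over all 16175 pairs 2939 had an unadjusted p under 0.05.

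**Figure D3:**
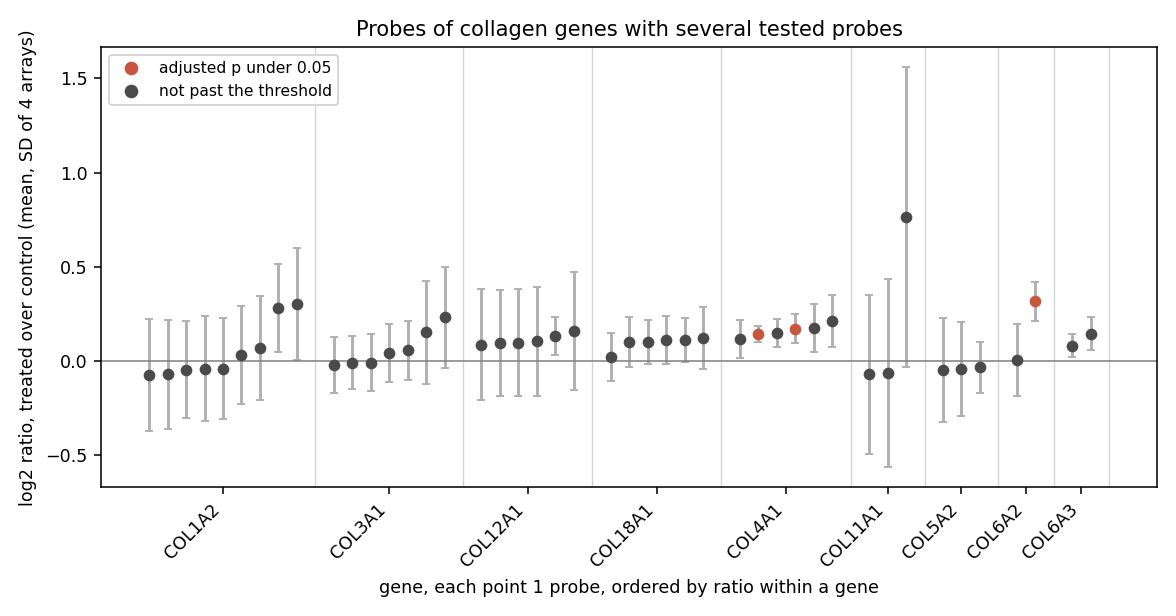
Mean log2 ratio of treated over control signal with SD over 4 arrays for every tested probe of the 9 collagen genes with several tested probes, ordered by ratio within each gene. The probes that passed (2 of COL4A1, 1 of COL6A2) are in red, and the means of COL1A2 run from -0.07 to 0.30.

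The 23 collagen genes with no tested probe were spread over all classes: 4 fibrillar (COL2A1, COL11A2, COL24A1 and COL27A1), 5 of type IV (COL4A2 to COL4A6) and 14 others. At every probe 16 of them were well above background on no array in either channel, among them the 5 probes of COL14A1 and the 8 of COL4A3. COL2A1, the cartilage chain, was above background at best on 2 arrays in the treated channel and 1 in the control channel, and COL13A1, a membrane-bound chain of the neuromuscular junction, on 2 and 0. These genes were not tested here. With no filter on dim probes, when all 112 collagen probes entered the fit, 8 passed as higher and 1 as lower. Of all 43603 probes in that fit 2938 (6.74%) passed as higher and 2360 as lower.

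Genes that fold, modify, cut, cross-link and bind collagen were read from a list of 51, of which 44 were tested at their brightest probe. Higher were 2 and lower were 5, against 9.93% and 7.17% of all gene names, and 37 did not pass. The median was 0.04, beside 0.01 over all gene names. Among the 12 enzymes and partners of hydroxylation 2 fell. PLOD2, the lysyl hydroxylase of the chain ends, had -0.47, -0.54, -0.12 and -0.27, a mean of -0.35 ± 0.19 (limma's adjusted p = 0.0299). Of its 3 tested probes only this one passed, and the probe means reached up to -0.04. PPIB, the cyclophilin that isomerises prolines during folding, had -0.40, -0.26, -0.03 and -0.28, a mean of -0.24 ± 0.16 (limma's adjusted p = 0.0466).

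The prolyl hydroxylase subunits P4HA1 and P4HB did not pass and, like the fibrillar chains, were highest on replicate 3. P4HA1 had -0.26, -0.29, 0.33 and 0.11, a mean of -0.03 ± 0.30 (limma's adjusted p = 0.869). P4HB had -0.14, -0.05, 0.24 and 0.06, a mean of 0.03 ± 0.16 (limma's adjusted p = 0.782). SERPINH1, the collagen chaperone HSP47, had -0.09, 0.07, 0.09 and 0.05, a mean of 0.03 ± 0.08 (limma's adjusted p = 0.665). None of the 5 tested genes of folding and export passed.

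Of 5 tested genes of propeptide removal 1 rose and 1 fell. ADAMTS3, a procollagen N-proteinase, had 0.19, 0.21, 0.19 and 0.20, a mean of 0.20 ± 0.01 (limma's adjusted p = 0.0229), while its other tested probe had -0.05. PCOLCE2, which enhances the C-proteinase, had -0.23, -0.02, -0.39 and -0.40, a mean of -0.26 ± 0.18 (limma's adjusted p = 0.0466), while its other tested probe had -0.16 and did not pass. Of 5 lysyl oxidases, which cross-link the fibrils, LOXL4 rose, with 0.29, 0.15, 0.21 and 0.22, a mean of 0.22 ± 0.05 (limma's adjusted p = 0.0233), and 4 of its 5 probes passed. LOX itself had -0.56, -0.75, -0.00 and -0.15, a mean of -0.36 ± 0.35 (limma's adjusted p = 0.0829).

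Among the 8 tested fibril partners LUM fell. Lumican, which limits fibril width, had -0.55, -0.34, -0.36 and -0.47, a mean of -0.43 ± 0.10 or 0.743-fold (limma's adjusted p = 0.013), and all 6 of its probes passed. SPARC, which binds and helps to secrete collagen, had 0.21, 0.04, 0.46 and 0.32, a mean of 0.26 ± 0.18 (limma's adjusted p = 0.0501). None of the 3 basement membrane partners passed. Of 5 tested collagen receptors ITGA1, whose integrin binds type IV collagen, fell, with -0.43, -0.36, -0.13 and -0.26, a mean of -0.30 ± 0.13 (limma's adjusted p = 0.0241), and 2 of its 3 probes passed. All 5 genes that fell lay below 0 on all 4 arrays, which passing a test on the same ratios makes likely. A pair of genes, named after their values were seen, did not pass at the brightest probe but did at others. ITGB1, the beta chain of the collagen-binding integrins, had -0.58, -0.62, -0.61 and 0.09, a mean of -0.43 ± 0.35 (limma's adjusted p = 0.0553), and 4 of its 5 probes passed as lower. BGN, the proteoglycan biglycan, had 0.11, 0.19, 0.38 and 0.12, a mean of 0.20 ± 0.12 (limma's adjusted p = 0.0519), and 2 of its 3 probes passed as higher.

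**Figure D4:**
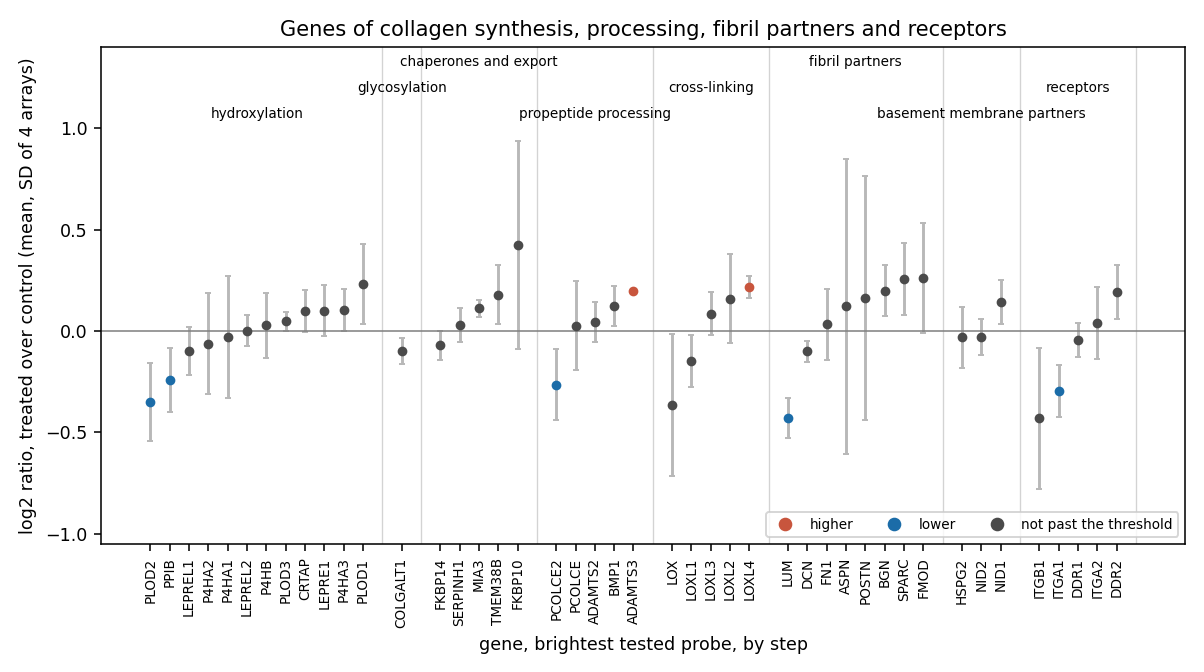
Mean log2 ratio of treated over control signal with SD over 4 arrays for the 44 tested genes of collagen synthesis, processing, fibril assembly and reception, at the brightest probe, grouped by step. The 2 genes that passed as higher (ADAMTS3 and LOXL4, both near 0.20) are in red and the 5 that passed as lower (LUM lowest at -0.43) in blue.

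Other cell types in the cultures were read from marker lists. In these mixed RNA samples fewer cells of a type and less RNA per cell cannot be told apart. Of 9 fibroblast and fibro-adipogenic markers 6 were tested, with THY1 higher and LUM lower. Their median was -0.01, -0.08, 0.06 and 0.02 on the 4 arrays, and their summed signal ranged from 80000 to 88200 in the treated and from 79000 to 97300 in the control channel. Of 6 pericyte and smooth muscle markers 4 were tested and none passed, with a median of -0.00, -0.14, 0.15 and 0.18 on the arrays and a summed signal of 30700 to 42400 in the treated and 35100 to 38900 in the control channel. MYH11 and RGS5 of that list, and PDGFRA and TCF21 of the fibroblast list, were in neither channel well above background on all 4 arrays. They were not tested, and for PDPN of the fibroblast list no probe was found.

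Of 11 myogenic markers 10 were tested, 7 of them higher and none lower, against 9.93% and 7.17% of all gene names, with a summed signal of 96500 to 109000 in the treated and 82800 to 94400 in the control channel. Of the myogenic list PAX7, the satellite cell marker, was not tested. None of the 6 endothelial, 5 adipocyte and 4 Schwann cell markers was tested. Of 5 immune markers 3 were, with PTPRC higher and CD14 lower, and a summed signal of 18400 to 20600 in the treated and 14400 to 15900 in the control channel. PTPRC was named from its probe description. Of its 15 probes 7 were tested, with means from -0.06 to 0.61, and 6 passed as higher. CD14 had a mean of -0.17 and CD68 of 0.005. The part of these cell types in the collagen values was not tested.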

How the data were processed

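The deposited files were scanner output of 4 two-colour Agilent arrays, with spot intensity in each channel, extracted by the authors with Feature Extraction 10.10.1.1 per the file headers. The log10 ratios deposited as a series table equal those of the scanner files on every array (largest difference 0, median 0) and served as an alternative. The labelling kit starts from the poly(A) tail, and 54.9% to 61.4% of gene spots were well above background. None was saturated. The number of arrays limits the precision.

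Intensities deposited by the authors were corrected with normexp (offset 50) and loess within each array (limma 3.58.1, R 4.3.3), spots marked as outliers were dropped, spots of a probe averaged, and log2 ratios tested against 0 with lmFit and eBayes. A probe entered the test where 1 channel at least was well above background in all 4 replicates. A gene is given at its brightest tested probe. Overlap of probes means a shared run of 15 bases. Of all 16175 pairs of tested probes that share a gene name 11868 overlap, so probes of 1 gene are often not separate measurements. The arrays were on 1 slide scanned at 1 time.

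Members and gene lists were chosen with earlier results of these data known. Values were named for each collagen gene with a called probe, the main chains of types I, III, V, IV and VI, genes with a called probe pair, listed partners past the threshold and 6 fixed partners. Genes without a symbol were named from the probe description. The fits were run on simulated ratios drawn independently for each probe. Overlap of probes and shifts shared by the probes of an array were not simulated. Alternatives changed the normalisation, signal source, filter, corrections, variance model, test, pairing of channels on an array and the arrays used. Some probe sequences are not reported here.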

Additional observations from a re-analysis of the deposited data

Results flagged for a closer look

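Of 38 items checked on their 4 arrays, COL8A2, a short chain of type VIII collagen, had 1 array apart from the others. Its replicate 2 had a log2 ratio of 0.32, against 0.08 to 0.09 on the other arrays, so that the gap took 0.937 of the whole range. Chance flags about 1 in 20 groups. The same array was highest for its partner chain COL8A1 (0.84).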

How the results depend on the processing

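The count of collagen probes passing as higher (4) was 0 with median centring, 2 with normexp offset 0 and 0 with the methods' t-test. This count was 8 with no filter on dim probes (then 112 collagen probes were tested) and 1 with separate channels and no replicate block. It was 0 to 6 when 1 replicate was left out, and between 3 and 6 under the other settings. Of all tested probes 9.49% passed as higher in the main fit. That share was 0.0495% with median centring, 7.55% with offset 0 and 0.00825% with the t-test. With no filter it was 6.74%, with separate channels 1.6%, and 0% to 8.58% when 1 replicate was left out. The count passing as lower (0) was 1 with no filter on dim probes, and 0 under all others. The count of differing collagen probe pairs (14, all of COL1A2 as reported) was 1 both for the scanner's processed signals and for the series table, 9 with normexp offset 0, 5 after the running median over signal, 0 with trend and robust estimation, 0 with the methods' t-test and 0 without any 1 replicate. It lay between 10 and 20 under the other settings. The matching counts over all pairs are not given, so losses particular to collagen pairs cannot be told from losses over all pairs. All class medians moved by less than the SD between arrays, from -0.02 to 0.27 for the fibrillar, 0.06 to 0.14 for the basement membrane and 0.00 to 0.11 for the other chains. COL7A1 lost its call in 5 of 19 settings, the COL6A2 probe at the stop codon in 6 of 18 and the COL4A1 probes in 8 and 12 of 18. The partners that passed lost it in 5 (LUM) to 11 (PCOLCE2) of 19. None of these turned its sign.

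Signs turned in genes that did not pass. COL6A2 at its brightest probe was -0.011 with median centring, -0.052 with the GC correction and -0.027 with array weights, and -0.051 to 0.093 with 1 replicate left out. COL5A2 was 0.065 with median centring and 0.0031 after the running median, and -0.16 to 0.020 with 1 replicate left out. SERPINH1 was -0.027 with the GC correction. With 1 replicate left out COL5A1 ranged from -0.18 to 0.019, P4HA1 from -0.15 to 0.060 and P4HB from -0.042 to 0.083. The causes were not tested. The methods' t-test called 2 higher and 3 lower probes in all. The alternatives with genes named from descriptions were chosen after seeing the data. They left the count passing as higher at 4. Signal over background limits the 23 collagen genes that were not tested.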
